A study of Micractinium conductrix and Chlorella sorokiniana with 12 samples.

Results

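Chlorella sorokiniana was compared between growth at pH 5.7 and growth at pH 7.6, over all genes of its table with a mean of at least 1 FPKM across the 6 libraries. FPKM is the number of sequenced fragments of a gene scaled to its length and to the size of the library. The rule kept 9011 of the 9587 genes in the table, out of 18936 genes in both species' tables of the series. The lowest mean inside the rule was 1.00 FPKM and the highest mean outside it was 0.995 FPKM. All libraries came from a single strain, UTEX 1602, a free-living alga from the Texas culture collection, in a modified freshwater medium, and the only stated difference between the groups was the pH of growth. Polyadenylated RNA of whole cells was sequenced in 3 libraries at pH 5.7 (named 2, 4 and 57) and 3 at pH 7.6 (named 1, 3 and 76). The labels do not state whether the 3 libraries of a pH came from separate cultures, and every p-value below therefore rests on spread that may be technical. The series' title asks about maltose excretion by a green alga, and C. sorokiniana is its free-living species.

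Acidity changes several things for a freshwater alga. It shifts dissolved inorganic carbon from bicarbonate towards CO2, the form that crosses membranes freely, and many green algae run a carbon-concentrating mechanism with carbonic anhydrases and bicarbonate transporters when CO2 is scarce. It also alters the proton gradient across the plasma membrane, which drives the uptake of sugars, nitrate and other solutes and which proton pumps maintain. Symbiotic relatives of Chlorella are known to release maltose in acidic medium. The genes here carried running identifiers (g1, g2 and so on) that the files pair with no name, product, sequence or position, so none of these functions could be assigned to a gene. Only 4 genes are named, 2 higher and 2 lower at pH 5.7.

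The libraries of pH 5.7 and pH 7.6 were apart in summed FPKM and in the number of genes at 1 FPKM or more. FPKM summed to 766511, 872037 and 913124 in libraries 2, 4 and 57, and to 1074955, 1057722 and 1664102 in libraries 1, 3 and 76. Every pH 5.7 library lay below every pH 7.6 library (exact permutation test, 2-sided, p = 0.1, the smallest that 3 against 3 allows). Genes at 1 FPKM or more numbered 8847, 8942 and 8927 at pH 5.7 and 8498, 8806 and 8675 at pH 7.6, again without overlap (exact permutation p = 0.1). The 50 most abundant genes held 28.4% to 33.2% of the sum in the 4 numbered libraries (1 to 4), 47.2% in library 57 and 67.4% in library 76. That share did not separate the pH groups (exact permutation p = 0.6). Neither did the share held by genes at 1000 FPKM or more, at 39.9% to 55.1% for pH 5.7 and 51.2% to 75.1% for pH 7.6 (exact permutation p = 0.3).

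Read totals are not given, but low values are multiples of what 1 fragment is worth, and their ratios give a relative depth. It equals the depth of sequencing only if each library was scaled to its own total of fragments, and the scaling is not stated. All 15 ratios between libraries agreed to 0.01 on the log2 scale. Each was the commonest ratio, at times by a narrow margin over the next. It was held by 10 genes against 9 for libraries 1 and 57 and by 12 against 10 for libraries 1 and 4. For libraries 3 and 4 it was 31 against 11. Relative to library 1, the depth was 1.51 in library 2, 1.04 in library 3, 1.31 in library 4, 1.92 in library 57 and 1.49 in library 76. On this measure libraries 1 and 3, both of pH 7.6, were the lowest, while library 76 of pH 7.6 was close to library 2 of pH 5.7. Absolute depth is unknown, so no counting interval is given.

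By overall profile, library 76 stood apart from libraries 1 to 4. Across the 9011 genes, log2(FPKM + 1) correlated by 0.92 between libraries 1 and 3 and by 0.90 between libraries 2 and 4, each pair sharing a pH. Library 76 correlated by only 0.76 and 0.78 with libraries 1 and 3 of its own pH, and by 0.88 with library 57 of the other pH. Library 57 itself correlated by 0.86 with library 2, as libraries 1 and 2 did with each other. With library 4 of the same pH it correlated by 0.81, and with libraries 1 and 3 of the other pH by 0.83 and 0.82. Libraries 1 and 4, of different pH, correlated by 0.77. The median absolute difference between libraries was lowest for libraries 2 and 4, at 0.40 on the log2 scale, and highest for libraries 1 and 76, at 0.80, although both of the latter grew at pH 7.6. In that comparison 41.0% of genes differed at least 2-fold, against 19.5% between libraries 57 and 76, which differed in pH. These correlations are across genes of the same 6 libraries and describe them without a test.

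The pH difference was read within pairs of libraries, 2 minus 1, 4 minus 3 and 57 minus 76, a pairing taken from the library names. The profiles alone do not single out this pairing. Library 2 was slightly closer to library 3 (r = 0.87, median absolute difference 0.44) than to library 1 (r = 0.86, 0.52). On the log2(FPKM + 1) scale, which understates the change of low genes, 1257 genes (13.9%) were at least 2-fold higher and 1070 (11.9%) at least 2-fold lower at pH 5.7 in libraries 1 and 2. In libraries 3 and 4 the counts were 943 (10.5%) and 763 (8.47%), and in libraries 57 and 76 they were 1051 (11.7%) and 703 (7.8%). Differences of at least 4-fold were more often towards pH 5.7, at 453 higher against 256 lower, 292 against 219, and 387 against 78 in the same order. The median of all genes lay between -0.02 and 0.00 in the 3 pairs. Each of these counts comes from 1 library per pH and has no replicate check of its own.

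The pairs share no library with each other, so each gives its own reading of the comparison. Whether they came from separate cultures is not stated, so their agreement may be technical. Between libraries 1 and 2 and libraries 3 and 4, the pH difference of the 9011 genes correlated by a Pearson r of 0.69 (Spearman rho 0.60). Between libraries 57 and 76 and the numbered pairs it correlated by 0.13 and 0.26 (rho -0.01 and 0.13). The direction was the same in both numbered pairs for 69.4% of genes. The first of the low values moved with the pseudocount, to 0.21 with 0.1 FPKM and to 0.04 with 5 FPKM in place of 1.

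**Figure D1:**
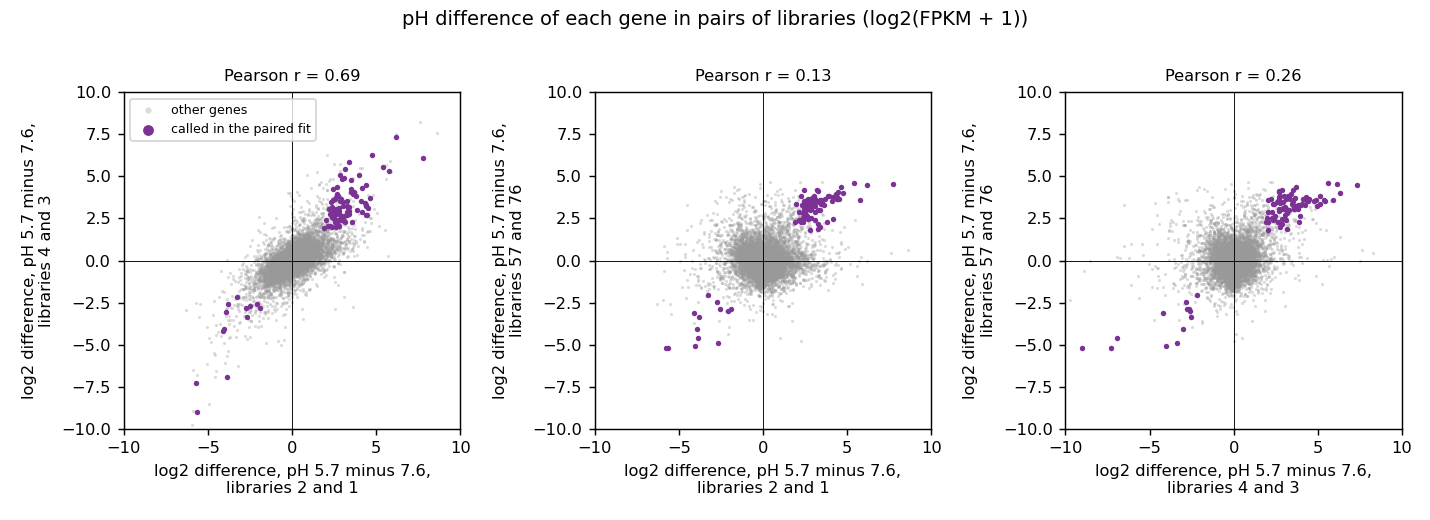
Each point is a gene, placed by its log2 difference (pH 5.7 minus pH 7.6, log2(FPKM + 1)) in one pair of libraries on each axis, with the 94 genes called in the paired fit in purple. The cloud is drawn out along the diagonal for the numbered pairs (r = 0.69) and is nearly round where libraries 57 and 76 are involved (r = 0.13 and 0.26), apart from the called genes.

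Lists of genes chosen in 1 pair were then read in another. Of the 100 genes most higher at pH 5.7 in libraries 1 and 2, 99 were also higher in libraries 3 and 4, with a median log2 difference of 2.74, and 88 were at least 2-fold higher there, against 10.5% of all genes. Of the 100 most lower genes, 99 were lower and 88 at least 2-fold lower in libraries 3 and 4 (median -2.84), against 8.47% of all genes. The choice made in libraries 3 and 4 and read in libraries 1 and 2 gave 89 and 91 genes at least 2-fold the same way, against 13.9% and 11.9% of all genes. The numbered libraries thus repeated each other's strongest differences in both directions.

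The same lists were read in libraries 57 and 76. Of the 100 genes most higher in libraries 3 and 4, 74 were at least 2-fold higher in libraries 57 and 76 (median 2.48), against 11.7% of all genes. Of the 100 most higher in libraries 1 and 2 this held for 41, with a median of 0.54. Of the 100 most lower in libraries 3 and 4, 28 were at least 2-fold lower in libraries 57 and 76, while 33 were at least 2-fold higher, and the median was -0.23. Of the 100 most lower genes of libraries 1 and 2, 38 were at least 2-fold lower and 22 at least 2-fold higher there (median -0.44), against 7.8% and 11.7% of all genes. The 28 and 38 became 16 and 19 with equal totals, which shifts all genes towards higher values at pH 5.7, and the 38 became 25 with a pseudocount of 5 FPKM. For the lists of libraries 1 and 2, quantile normalization gave 36 higher and 46 lower genes in place of 41 and 38, so their order depends on the scaling. Read the other way, the 100 genes most higher in libraries 57 and 76 had medians of 2.12 and 2.09 in the numbered pairs, and the 100 most lower had medians of -0.70 and -0.57.

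**Figure D2:**
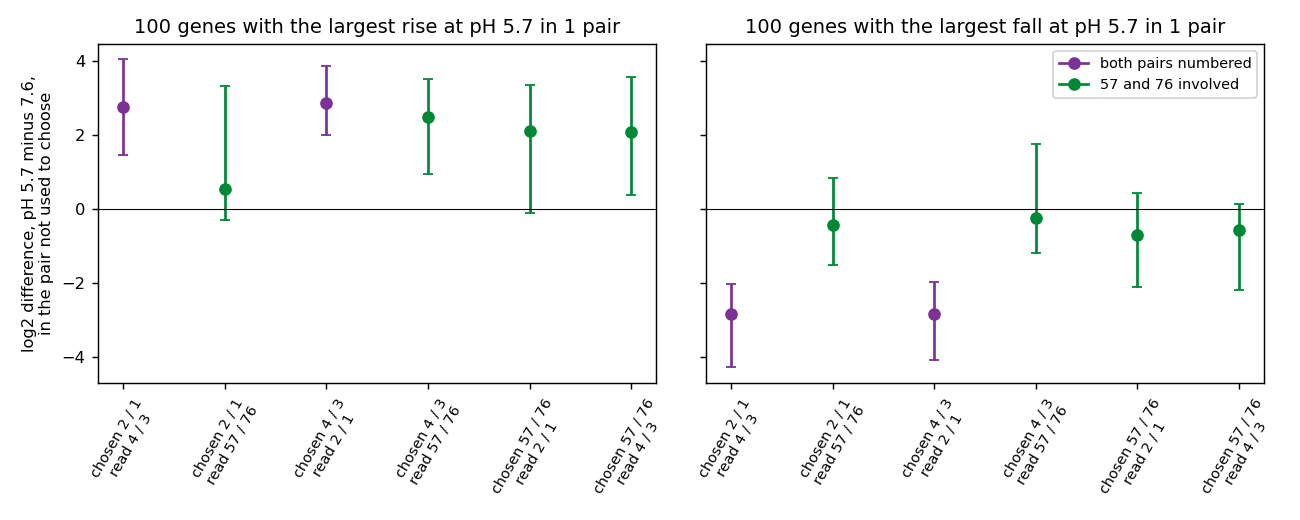
Median (point) and quartiles (bars) of the log2 difference (pH 5.7 minus pH 7.6) of 100 genes in a pair of libraries that was not used to choose them, for genes chosen as most higher (left) and most lower (right). Lists exchanged between the numbered pairs (purple) lie at 2.74 and 2.86 or at -2.84, while lists of lower genes that involve libraries 57 and 76 (green) lie between -0.70 and -0.23.

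Genes at least 2-fold different in both numbered pairs were followed into libraries 57 and 76. There were 569 higher genes (6.31% of those tested) and 454 lower genes (5.04%). Of the 569, 260 (45.7%) were at least 2-fold higher in libraries 57 and 76 as well, 277 differed by less than 2-fold and 32 (5.62%) were at least 2-fold lower. Of the 454, only 88 (19.4%) were at least 2-fold lower in libraries 57 and 76, 231 differed by less and 135 (29.7%) were at least 2-fold higher. Of all genes, 7.8% were at least 2-fold lower and 11.7% at least 2-fold higher in libraries 57 and 76. Differences of at least 2-fold in all 3 pairs were left in 260 higher (2.89%) and 88 lower genes (0.977%), and differences of at least 8-fold in 27 and 6.

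Whether the pH difference itself differed between libraries 57 and 76 and the numbered pairs was tested with an interaction term in limma. Of 9011 genes, 424 (4.71%) passed a Benjamini-Hochberg adjusted p of 0.05, 301 (3.34%) with a difference more positive in libraries 57 and 76 and 123 (1.36%) with one more negative. In 262 of the 301 and 71 of the 123 the sign of the pH difference was opposite. The 301 genes had medians of 269 and 172 FPKM in libraries 1 and 3 and of 78.7 and 52.3 FPKM in libraries 2 and 4. In library 76 the median was 27.0 FPKM, and in library 57 it was 82.7 FPKM. The median of these genes was thus high at pH 7.6 in the numbered libraries and lowest of all in library 76. The 123 genes had medians of 22.3 and 35.1 FPKM in libraries 1 and 3, 122 and 321 FPKM in libraries 2 and 4, and 139 and 53.9 FPKM in libraries 76 and 57. These values describe genes that the test selected. The fit leaves 1 residual degree of freedom, which is the disagreement between the numbered pairs, and borrows its estimate of spread from other genes. Libraries 57 and 76 are 1 library per pH, so how far such a pair would vary on repetition is not in the p-values. Dropping the mean-variance trend changed the 301 and 123 genes to 91 and 21. Equal totals left 138 and 9, quantile normalization 78 and 16, upper-quartile scaling 82 and 22, and no filter on low values 0 and 0. The second class was thus nearly lost under equal totals.

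**Figure D3:**
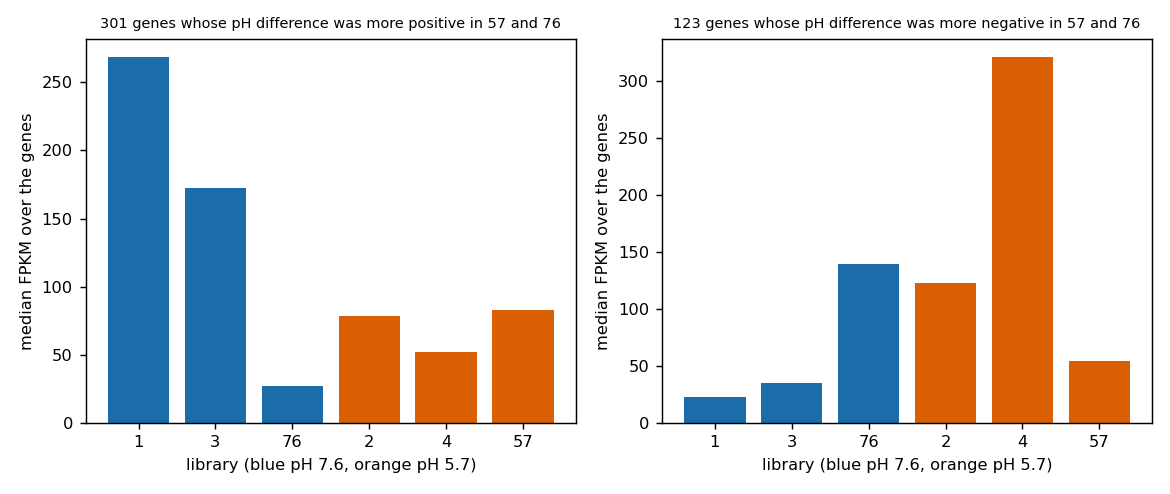
Median FPKM in each library over the 301 genes (left) and the 123 genes (right) whose pH difference differed between libraries 57 and 76 and the numbered pairs, with pH 7.6 in blue and pH 5.7 in orange. On the left, libraries 1 and 3 stand at 269 and 172 FPKM and library 76 at 27.0 FPKM, and on the right, libraries 2 and 4 stand at 122 and 321 FPKM and library 57 at 53.9 FPKM.

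By gene, no member passed the threshold without the pairing (limma, Benjamini-Hochberg adjusted p under 0.05, 0% of 9011 genes), where 471 higher and 204 lower genes had an unadjusted p under 0.05 and the smallest adjusted p was 0.0663. With the pairs as a block, 81 genes rose (0.899%) and 13 fell (0.144%) at pH 5.7, and without libraries 57 and 76 this became 537 (5.96%) and 523 (5.8%). That last fit has 1 residual degree of freedom, and the same 4 libraries without the block gave 0 genes in limma (smallest adjusted p = 0.0507, with 1319 genes at an unadjusted p under 0.05). Without libraries 1 and 2, or without libraries 3 and 4, limma called 0 genes in both directions, with 786 and 538 genes at an unadjusted p under 0.05. All 81 and all 13 were among the genes called in the numbered pairs alone, of which they made up 15.1% and 2.49%. Both fits use libraries 1 to 4, so this overlap is no separate check.

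The numbered pairs' calls can be read in libraries 57 and 76, which took no part in them. Of the 537 higher genes, 376 (70.0%) were higher and 236 (43.9%) at least 2-fold higher in libraries 57 and 76, where 49.9% and 11.7% of all genes were. Of the 523 lower genes, 222 (42.4%) were lower there, against 50.0% of all genes, 92 (17.6%) were at least 2-fold lower and 158 (30.2%) at least 2-fold higher. The median difference in libraries 57 and 76 was 0.63 over the 537 genes and 0.24 over the 523. The higher genes of the numbered libraries were thus mostly higher in the remaining pair, and the lower genes were not mostly lower. These counts are given for the deposited scaling alone. For the lists of libraries 1 and 2 above, the order of higher and lower genes depended on the scaling.

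The 81 genes that rose in the paired fit were scarce at pH 7.6. Their medians in libraries 1, 3 and 76 were 0.574, 3.03 and 1.39 FPKM, and in libraries 2, 4 and 57 they were 13.8, 38.1 and 22.1 FPKM. In library 1, 51 of the 81 were under 1 FPKM and 19 were listed at 0, and in no pH 5.7 library was any under 1 FPKM. The pH groups did not overlap in 80 of the 81, where 7.17% of all genes were higher without overlap. The 13 genes that fell had medians of 16.7, 19.3 and 65.7 FPKM in libraries 1, 3 and 76 and of 0.474, 1.58 and 3.51 FPKM in libraries 2, 4 and 57. Their groups were apart in 10 of 13, where 4.66% of all genes were lower without overlap. The test chose these genes for such differences, so the counts describe them and add no evidence.

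A related class was near absent at one pH. In 74 genes (0.821%) every pH 7.6 library was under 1 FPKM and every pH 5.7 library at 1 FPKM or more, and 2 genes (0.0222%) showed the converse. The medians of the 74 were 0.0520, 0.365 and 0.438 FPKM in libraries 1, 3 and 76 and 3.50, 7.69 and 5.08 FPKM in libraries 2, 4 and 57. They passed the rule on mean FPKM through their pH 5.7 libraries. In library 1, 32 of the 74 were listed at 0, in library 3 it was 8 and in library 76 it was 1. Library 1 also had the lowest relative depth by low values, and the part of depth in its zeros was not tested. With libraries 57 and 76 left out the counts were 138 and 21, with 2 FPKM as the limit the second count was 6, and with equal totals it was 1. The paired test called 10 of the 74 (13.5%) and both converse genes, where it called 0.899% of all genes higher and 0.144% lower, but the class was chosen for the same difference.

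The pH difference also ran with abundance. To keep the grouping apart from the pair being read, genes were grouped for each pair by their mean FPKM in the 4 other libraries. The most abundant genes, at 1000 FPKM or more, had a median log2 difference of -0.30 in libraries 1 and 2 (118 genes, 16.1% of them higher at pH 5.7) and of -0.29 in libraries 3 and 4 (123 genes, 17.9% higher). In libraries 57 and 76 it was -0.65 (139 genes, 38.8% higher), with quartiles of -1.39 and 0.91, so that there abundant genes scattered in both directions. Genes under 10 FPKM lay at the other end in the numbered pairs, at 0.34 and 0.22, and at 0.00 in libraries 57 and 76. Relative to the median of all genes, the abundant genes lay 0.28, 0.29 and 0.65 lower at pH 5.7 in the 3 pairs, and 0.24, 0.27 and 0.60 lower after scaling to equal totals. Quantile normalization, which gives every library the same distribution, put them 0.44, 0.16 and 0.17 higher, so this direction depends on the scaling.

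**Figure D4:**
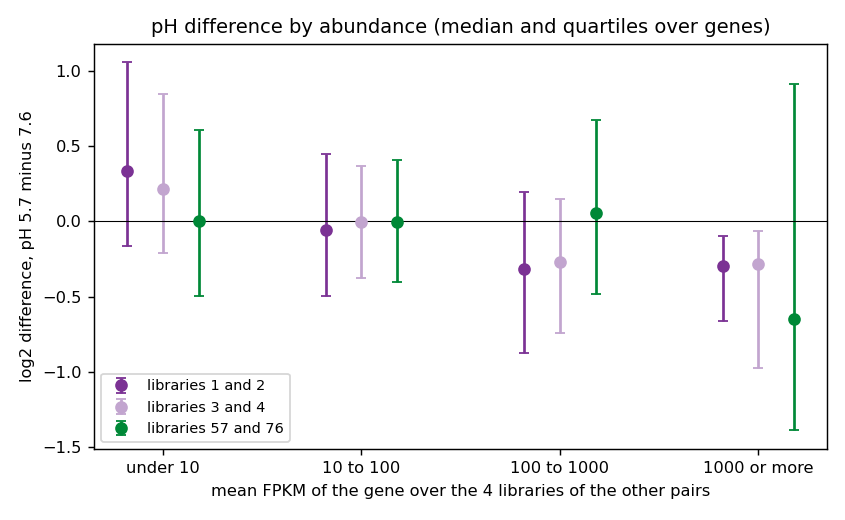
Median (point) and quartiles (bars) of the log2 difference (pH 5.7 minus pH 7.6) over genes grouped by their mean FPKM in the 4 libraries of the other pairs, for each pair of libraries. In the numbered pairs the median runs from 0.34 and 0.22 under 10 FPKM to -0.30 and -0.29 at 1000 FPKM or more, a direction that turned under quantile normalization.

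Agreement between pairs also varied with abundance. With genes grouped by their mean over all 6 libraries, the correlation between the numbered pairs was 0.56 for the 1880 genes at 1 to 10 FPKM, 0.68 for the 5882 at 10 to 100, 0.82 for the 1115 at 100 to 1000 and 0.87 for the 134 at 1000 or more. With libraries 57 and 76 the correlation of libraries 1 and 2 went from 0.21 to 0.12, 0.02 and -0.23, and that of libraries 3 and 4 from 0.41 to 0.27, 0.03 and -0.22. Among abundant genes, the numbered pairs were thus most alike and libraries 57 and 76 least like them. These are correlations across genes that share libraries, and the last group is small.

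The 4 named genes had the largest smallest change over the 3 pairs among those that passed the paired test. Gene g173 was at 46.7, 378 and 125 FPKM in libraries 2, 4 and 57 and at 0.129, 6.97 and 4.23 FPKM in libraries 1, 3 and 76. All 3 pH 5.7 libraries lay above all pH 7.6 libraries, and within each group the libraries 1 and 2 were the lowest. Its log2 fold was 5.19 (SE 0.29 within pairs, n = 3 per group; limma adjusted p = 0.0229), and its pair differences were alike, at 5.40, 5.57 and 4.59.

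Gene g5259 stood at 706, 4095 and 941 FPKM in libraries 2, 4 and 57 and at 2.28, 58.4 and 39.7 FPKM in libraries 1, 3 and 76. By rank of FPKM it was number 144, 33 and 95 in the pH 5.7 libraries and number 8138, 2255 and 2744 in the pH 7.6 libraries, out of 9587. Its pair differences were 7.75, 6.11 and 4.53 (mean 6.13, SE 0.63, adjusted p = 0.0269 in limma).

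In the other direction, g6470 was at 11.2, 2.08 and 5.52 FPKM in libraries 2, 4 and 57 and at 652, 482 and 241 FPKM in libraries 1, 3 and 76. The groups did not overlap, and the pair differences were -5.74, -7.29 and -5.21 (mean -6.08, SE 0.45, adjusted p = 0.0229 in limma). Gene g223 was at 18.4, 1.58 and 1.32 FPKM in libraries 2, 4 and 57 and at 989, 1340 and 83.5 FPKM in libraries 1, 3 and 76. Its lowest pH 7.6 value, in library 76, was still above the highest at pH 5.7, in library 2 (log2 fold -6.63, SE 0.77, adjusted p = 0.0391 in limma).

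Without the pairing none of the 4 passed (limma adjusted p = 0.136, 0.138, 0.0663 and 0.138 for g173, g5259, g6470 and g223). With the block, leaving out libraries 1 and 2 gave adjusted p of 0.108 to 0.110 and leaving out libraries 3 and 4 gave 0.205 to 0.221, and no gene of the table passed in either fit. Leaving out libraries 57 and 76 gave adjusted p of 0.000169 to 0.00102 in limma. In these 3 fits the log2 fold lay between 5.00 and 5.49 for g173, between 5.32 and 6.93 for g5259, between -6.51 and -5.48 for g6470 and between -7.35 and -5.43 for g223.

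**Figure D5:**
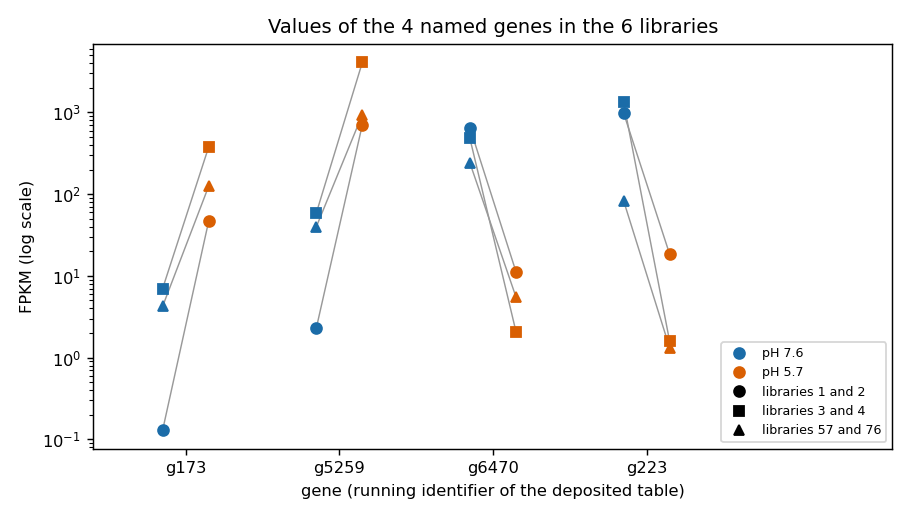
FPKM (log axis) of the 4 named genes in each library, with pH 7.6 in blue, pH 5.7 in orange, a marker shape per pair and a line joining the libraries of a pair. The lines of g173 and g5259 go up and those of g6470 and g223 go down in all 3 pairs, and the pH groups do not overlap in any of the 4 genes.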

How the data were processed

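The deposited values are FPKM per gene and library, 1 table per species, unpooled. The authors' tools, per the submitters' processing notes, included Cuffnorm after FastQC, Trimmomatic, HISAT2 and Picard (versions not listed). For the genome build, gene models, strandedness and scaling between libraries, the sources used here give nothing, and reads shared between paralogs could not be judged. Genes averaging 1 FPKM or more in the C. sorokiniana table were analysed as log2(FPKM + 1). The tool was limma 3.58.1 under R 4.3.3 (lmFit, eBayes with a mean-variance trend, 2-sided, Benjamini-Hochberg over 9011 genes, threshold 0.05), without and with the pair of libraries as a block, and with an interaction term for libraries 57 and 76. The fits were also run on simulated data with the same normal noise for all genes and the pairs of libraries built in. That run cannot speak for the pairing or for the spread of the real genes. Other computations used Python 3.11.15, numpy 2.4.6, pandas 2.3.3 and scipy 1.17.1. The pairing comes from the library names alone. Deviations from the group means correlated within these pairs by 0.40, 0.58 and 0.48 across genes. The same was not computed for other pairings of the libraries, so these values cannot show that this pairing is right. Named genes were, among those called in the paired fit, the 2 higher and 2 lower with the largest smallest-pair change. The comparison, lists and tests were chosen with earlier results of these data known. Relative depth is the commonest ratio of values under 1 FPKM between libraries. Gene lists by function were not analysed here, because identifiers carry no names.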

Additional observations from a re-analysis of the deposited data

Results flagged for a closer look

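The pH difference of libraries 57 and 76 differed from that of the numbered pairs in 424 genes (4.71% of those tested; limma interaction term, adjusted p under 0.05). Libraries 57 and 76 are 1 library per pH, so their own spread is not in this test. The further classes given here were chosen for opposite differences, overlap with the 424 genes and had no test of their own. Of the 569 genes at least 2-fold higher at pH 5.7 in both numbered pairs, 32 (5.62%) were at least 2-fold lower in libraries 57 and 76. That share was below the 7.8% of all genes that were. Of the 454 genes at least 2-fold lower in both numbered pairs, 135 (29.7%) were at least 2-fold higher in libraries 57 and 76, against 11.7% of all genes. The interaction term called 27 of the 32 and 128 of the 135. The 135 genes had medians of 284 and 187 FPKM in libraries 1 and 3, 85.7 and 37.6 FPKM in libraries 2 and 4, 28.8 FPKM in library 76 and 102 FPKM in library 57. The 32 genes had medians of 4.14 and 9.24 FPKM in libraries 1 and 3, 26.5 and 31.4 FPKM in libraries 2 and 4, 76.3 FPKM in library 76 and 16.0 FPKM in library 57. Library 76 also held the largest share of FPKM in its 50 most abundant genes, and the part of this in the difference was not tested.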

How the results depend on the processing

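The 0 higher and 0 lower genes of the unpaired fit changed to 1 and 2 under upper-quartile scaling or quantile normalization. Equal totals gave 40 and 2, and 3 and 1 once the median of all genes, which this scaling put at 0.49, was set to 0. Sample quality weights gave 133 and 131, and the replicate block 81 and 13. With single libraries left out, higher genes numbered 0 to 4 (4 without library 57) and lower genes 0 to 2 (1 without library 57, 2 without library 76). The 81 and 13 genes of the paired fit changed to 33 and 8 under a pseudocount of 0.1 FPKM or quantile normalization, and to 34 and 3 under 5 FPKM. They were 42 and 7 among genes averaging 5 FPKM or more, 8 (lower) without a filter, 200 (higher) under equal totals, and 892 and 660 under quality weights. Leaving out a pair gave between 0 and 537 higher and between 0 and 523 lower genes. The 424 genes of the interaction term changed to 0 without a filter (1505 at an unadjusted p under 0.05), to 104, 94 and 147 under upper-quartile, quantile and equal-total scaling (147 also with the median set to 0), and to 112 without the trend. That fit could not be run without a pair, since no residual degree of freedom is left. The correlation of libraries 1 and 2 with 57 and 76 was 0.212 under 0.1 FPKM and 0.0382 under 5 FPKM. Among the numbered pairs it stayed within 1.5 times of its value under the 5 alternatives run. The 74 genes under 1 FPKM at pH 7.6 became 138, and the 2 converse genes 21, without libraries 57 and 76. The 2 became 6 at a limit of 2 FPKM and 1 under equal totals. The 4 named genes kept their direction in all settings run, and g223 also missed the threshold under both pseudocounts, without a filter and under quantile normalization (limma adjusted p = 0.0515 to 0.0573). The causes were not tested. Absolute depth is unknown, which limits what can be said of values near 1 FPKM. Chosen after the data were seen were the numbered libraries alone, the recentred totals, most alternatives to the interaction term, the abundance groups, the genes under 1 FPKM at one pH, and the other limits and list sizes. So were the other pseudocounts for the agreement between pairs, in its correlations and its lists.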

Other observations

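Genes with neighbouring running identifiers had weakly related pH differences. Over 8544 gene pairs 1 number apart, the mean pH difference correlated by 0.11, and by 0.09, 0.11 and 0.08 in libraries 1 and 2, 3 and 4, and 57 and 76 taken singly. At 2 numbers apart the correlation was 0.04 (8505 gene pairs), at 10 apart it was -0.003 and at 100 apart 0.006. Of all genes, 3.50% had a mean pH difference of at least 4-fold. Where a gene did, the gene with the next number did in 8.94% of cases. For the gene 2, 3, 5, 10 and 100 numbers on, the share was 4.01%, 5.08%, 3.72%, 2.36% and 3.02%. Of the 94 genes called in the paired fit, 4 (4.26%), which form 2 adjacent pairs of like direction, had a called neighbour, against 2.00% of all genes tested. The files do not say what order the numbers follow, the genes share their libraries, and weak correlations of this size are given as values with no test.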
